A study of Mus musculus with 14 samples.

Results

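The genes described here encode voltage-gated sodium channels, voltage-gated calcium channels, the pacemaker (HCN) channels and the sodium leak channel. They were chosen by gene symbol alone, without use of any measured value: Scn followed by a number and a or b, Cacna, Cacnb1 to Cacnb4, Cacng1 to Cacng8, Hcn followed by a number, and Nalcn. The rule gave 45 genes of the 55422 entries of the count table. They fall into 10 sodium pore subunits, 4 sodium beta subunits, 10 calcium pore subunits, 4 alpha2delta subunits, 4 calcium beta subunits, 8 gamma subunits or AMPA receptor regulators, 4 pacemaker subunits and 1 leak channel.

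RNA was sequenced from the brainstem of 7 mice in order to compare the RNA translated in locus coeruleus neurons after infusion of mutant human tau or of a control protein. The locus coeruleus (LC) is the main noradrenergic nucleus of the brain. All animals were of C57Bl/6 background, were 2 to 3 months old at infusion, and carried Th-cre together with Slc6a2-eGFP/Rpl10a, a fusion of green fluorescent protein to ribosomal protein L10a under control of the noradrenaline transporter gene. Human tau with the P364S substitution was infused into the LC of 4 animals (B, C, L and M) and enhanced yellow fluorescent protein (EYFP) into that of 3 (animals H, I, K). By the labels tau animals B and L were male and C and M female. EYFP animal I was male, and H and K were female. Tagged ribosomes were immunoprecipitated from every animal (the IP library), and the homogenate before that step was sequenced too (the pre-IP library). Tau thus had 4 libraries and EYFP 3 in each of these fractions. The tag marks every cell in the dissected brainstem that uses the Slc6a2 promoter, and the pre-IP holds RNA of all cells. In such bulk samples fewer cells of a type and less RNA per cell cannot be told apart.

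Sodium channels carry the upstroke of the action potential through a single large pore subunit, while their beta subunits are adhesion-like proteins that tune gating and placement in the membrane. Calcium channels have a pore subunit that sets the current type (L, P/Q, N, R or T). Those of the L, P/Q, N and R types combine it with an alpha2delta and a beta subunit that bring it to the surface. HCN channels open on hyperpolarization and NALCN carries a steady sodium leak, and both kinds of current help set the spontaneous firing for which LC neurons are known.

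Total counts ran from 41843489 to 65664551 per library, and 3 counts correspond to 0.0457 to 0.0717 counts per 1000000 library counts (CPM), a floor that covers counting error only. The tau construct had 3527 to 47177 counts in the libraries of tau animals, 2 to 18 in those of EYFP animals H and I, and 408 (pre-IP) and 398 (IP) in those of EYFP animal K. The IP library of tau animal B stood apart: it had the fewest genes with counts (20813) and the lowest RNA concentration (0.1 ng per microlitre), and it was the lowest of the 7 IP libraries for 44.1% of the 18792 genes tested and for 20 of 40 channel genes. The EYFP IP library of animal I had an RNA integrity number of 4.2, and the other 13 libraries had 7.7 or more. Of 12 listed noradrenergic marker genes 11 were tested, and 11 of 11 were higher in IP than in pre-IP, with a median log2 fold change of 2.35. The mean enrichment of these 11 per animal was uneven, at 4.51, 3.64, 3.56 and 1.82 on the log2 scale in tau animals B, C, L and M against 0.71, 0.99 and 0.69 in EYFP animals H, I and K.

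Channel RNA covered a wide range of levels in the brainstem homogenate. Per kilobase of exon, Scn4b, the sodium beta subunit linked to resurgent current, had a pre-IP level of 66.7 CPM per kb ± 19.3 (SD, n = 7 pre-IP libraries), and the calcium beta subunit Cacnb3 had 25.5 ± 5.97. The pore subunits lay lower on the same scale. The pacemaker subunits Hcn2 and Hcn3 had 12.7 CPM per kb ± 10.6 and 6.40 ± 1.15. Among sodium and calcium pores the highest were Scn1a and Scn8a, which did not differ beyond their spread. Scn1a, the channel of fast-spiking interneurons, had 5.08 CPM per kb ± 0.779. Scn8a, the main channel of mature axon initial segments, had 4.78 ± 0.594. Next came Cacna1g, a T-type calcium pore, at 2.496 ± 0.540 and Scn2a at 1.79 ± 0.557. The peripheral and muscle genes were close to the floor: Scn10a and Scn11a, known from nociceptors, reached at most 0.335 and 0.296 CPM in any library, and Scn4a and Cacng1, known from skeletal muscle, at most 0.395 and 0.261 CPM.

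The first comparison asked which channel RNAs made up a larger or smaller share of the IP than of the homogenate. With edgeR over all 14 libraries, 13 of the 40 channel genes tested passed an adjusted p of 0.05, 11 higher and 2 lower in IP. Higher were the sodium pores Scn1a, Scn2a and Scn3a, the sodium beta subunit Scn2b, the N- and R-type calcium pores Cacna1b and Cacna1e, the alpha2delta subunits Cacna2d1 and Cacna2d3, the calcium beta subunit Cacnb4, the AMPA receptor regulator Cacng4, and Nalcn. Lower were the T-type pore Cacna1h and the sodium beta subunit Scn4b. Among all 18792 genes tested 31.0% passed, 16.3% higher and 14.7% lower, so that 13 of 40 is close to the background. Their median log2 fold change was 0.25, against -0.0036 over all genes, and 25 were above 0 and 15 below, where 49.7% of all genes were above 0. The 5 genes Cacng1, Cacng6, Scn4a, Scn10a and Scn11a did not pass the filter on low counts. Among the 11 higher genes only Cacng4 and Cacna2d3 had a larger mean log2 ratio in tau than in EYFP animals (1.01 against 0.70 and 0.61 against 0.53). Scn1a had 0.40 in tau and 1.01 in EYFP animals, Scn3a 0.86 in both, and Nalcn 0.44 and 0.61. The mean of the noradrenergic markers was larger in every tau animal than in any EYFP animal. Whether these channel RNAs came from tagged cells was not tested.

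**Figure D1:**
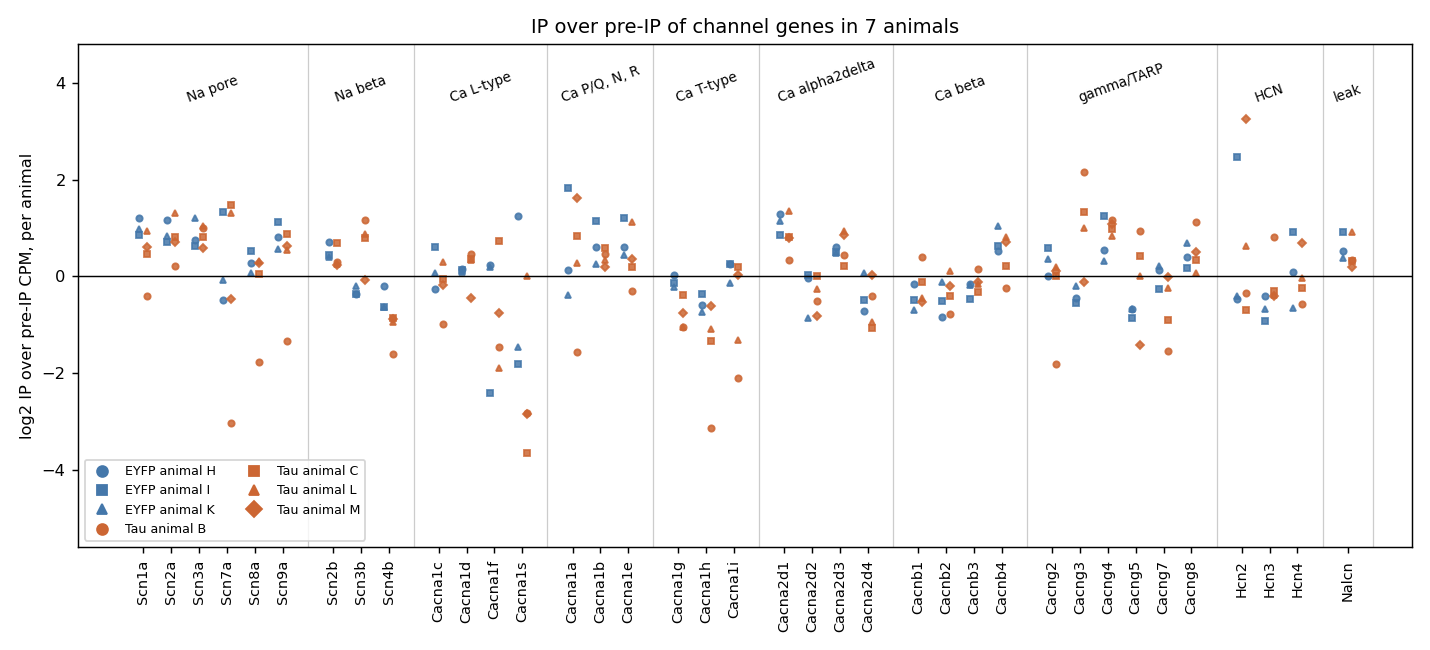
Log2 ratio of IP to pre-IP CPM (prior count 2) in each of 7 animals for tested channel genes, grouped by family; squares, circles, triangles and diamonds are single animals, blue for EYFP and orange for tau. Points of Scn2a, Scn3a, Cacna2d1, Cacna2d3 and Cacng4 lie above 0 in all 7 animals, those of Cacna1h and Scn4b lie below 0 in all 7, and tau animal B has the lowest point in many genes.

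Among the 7 sodium pore subunits tested 3 were higher in IP and 0 lower. Scn3a (ENSMUSG00000057182.15, chromosome 2, 65457118 to 65567627, minus strand, GRCm38), a pore best known from the developing brain, had a lowest, median and highest level of 6.02, 8.49 and 9.75 CPM in the 7 pre-IP libraries and of 12.8, 14.9 and 17.4 CPM in the 7 IP libraries. The fractions did not overlap, and the log2 fold change was 0.91 (SE 0.13, edgeR adjusted p 0.00011). Scn3a and Cacng4 were the only channel genes without overlap between all IP and all pre-IP libraries, a pattern shown by 9.46% of all genes tested, 3.69% in the higher and 5.77% in the lower direction. Scn2a (ENSMUSG00000075318.12, chromosome 2, 65620771 to 65767447, plus strand), the pore of immature and unmyelinated axons, lies head to head with Scn3a, on the opposite strand and with 53.1 kb between the genes. It had 14.2, 25 and 31.3 CPM (lowest, median, highest) in pre-IP and 23.3, 42.7 and 56.1 CPM in IP. The ranges overlapped, but within each of the 7 animals the IP value was the higher one, and the log2 fold change was 0.88 (SE 0.22, edgeR adjusted p 0.00622). Scn1a (chromosome 2, 66270778 to 66440840) had 45.4, 52.7 and 68.7 CPM in pre-IP and 50.4, 86.4 and 125 CPM in IP, with a log2 fold change of 0.71 (SE 0.13, adjusted p 0.001 in edgeR). It was higher in the IP of 6 of 7 animals, and the exception was tau animal B at -0.40.

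The pores Scn8a and Scn9a did not pass in edgeR over all 14 libraries. Scn8a had 65.9, 71.4 and 93.0 CPM in pre-IP and 19.2, 89.0 and 102 CPM in IP, where the value of 19.2 was that of tau animal B, and its log2 fold change was 0.11 (SE 0.21, edgeR adjusted p 0.738). Scn9a, the pore of sympathetic and nociceptive neurons, gave 0.58 (SE 0.23, edgeR adjusted p 0.0629) and was above 0 in 6 of 7 animals. DESeq2 (0.58, adjusted p 0.0372) and voom (0.61, adjusted p 0.0131) called Scn9a. Without animal B both passed, Scn8a at 0.26 (edgeR adjusted p 0.0382) and Scn9a at 0.81 (edgeR adjusted p 0.00274). Scn9a shares 180 exonic bases with Gm13629 on the other strand, which had 18721 counts over all libraries against 3358 for Scn9a, and since the use of strand in counting is not given in the sources used here its level is uncertain.

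Sodium beta subunits divided. Scn2b, which is linked to the pore by a disulfide bond, was higher in IP, with 50.2, 71.2 and 73.6 CPM in pre-IP, 66.1, 87.5 and 120 CPM in IP and a log2 fold change of 0.50 (SE 0.13, adjusted p 0.00785 in edgeR). All 7 animals had the higher value in IP. Scn4b was lower in IP, with 244, 286 and 470 CPM in pre-IP against 80.1, 185 and 294 CPM in IP and a log2 fold change of -0.77 (SE 0.23, adjusted p 0.0173 in edgeR). All 7 animals had the lower value in IP, from -0.21 in EYFP animal H to -1.61 in tau animal B, and without tau animal L the gene no longer passed (-0.75, edgeR adjusted p 0.056). These neighbouring genes lie on the same strand of chromosome 9, Scn2b at 45117782 to 45130070 and Scn4b at 45138395 to 45154152, 8.32 kb apart. Scn3b did not pass, with a log2 fold change of 0.38 (SE 0.24).

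**Figure D2:**
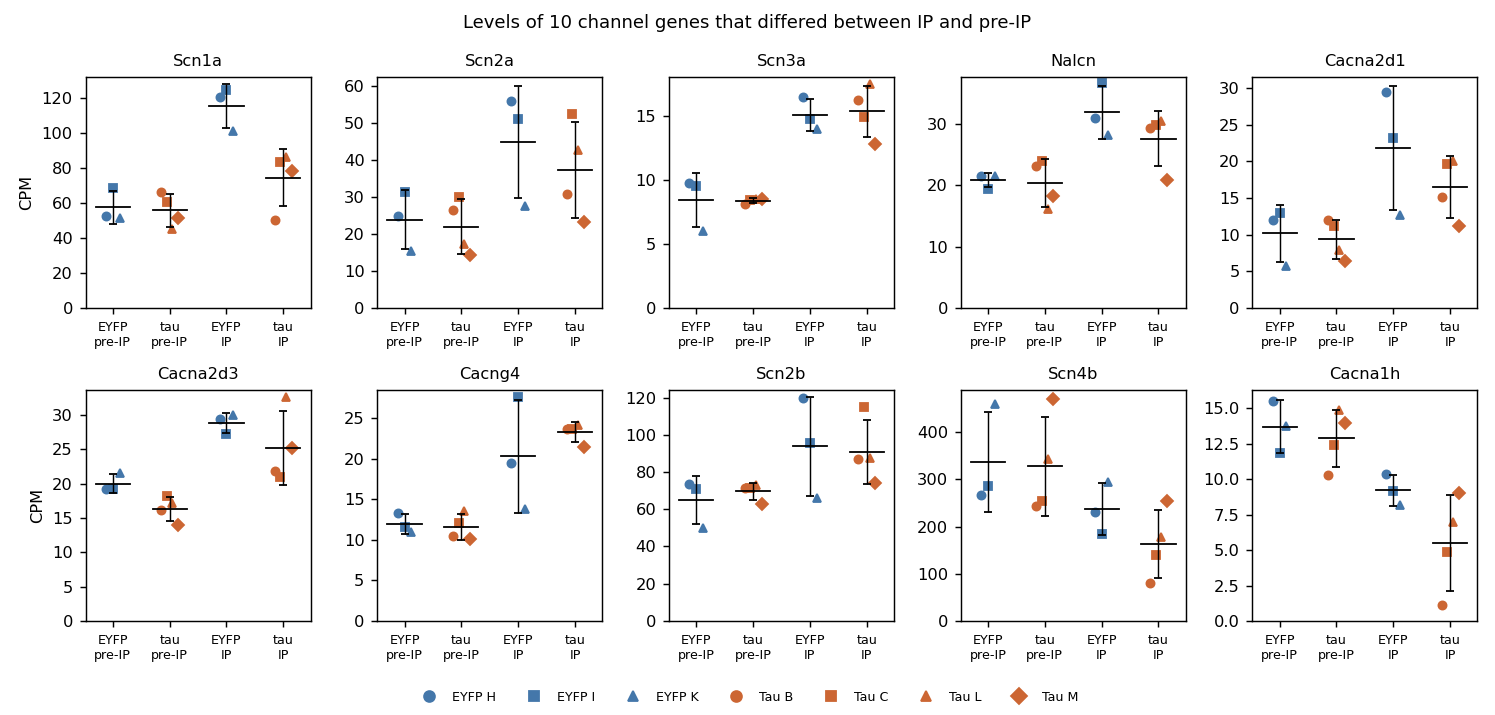
CPM of 10 of the 13 channel genes that passed for IP against pre-IP, in every library of the 4 groups, with the group mean and SD (3 EYFP and 4 tau animals, symbols as single animals). Scn3a and Cacng4 are higher in every IP library than in any pre-IP library, while Scn4b and Cacna1h are lower in IP, with tau animal B the lowest.

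Among calcium pores, the fitted values over all animals were above 0 for the 3 P/Q-, N- and R-type genes, which serve transmitter release, and below 0 for the 3 T-type genes. Single animals departed from this: Cacna1a was -1.57 in B and -0.38 in K, and Cacna1e was -0.31 in B. Cacna1b (N-type, chromosome 2, 24603887 to 24763152, minus strand) had 5.69, 6.77 and 8.70 CPM in pre-IP and 7.38, 10.5 and 13.2 CPM in IP. Every animal had more in IP, and the log2 fold change was 0.58 (SE 0.15, edgeR adjusted p 0.00836). Cacna1e (R-type) had 5.69, 6.17 and 9.58 CPM in pre-IP and 5.84, 8.70 and 14.6 CPM in IP, a log2 fold change of 0.60 (SE 0.19, adjusted p 0.0215 in edgeR) that was lost without EYFP animal I (0.51, edgeR adjusted p 0.081) or tau animal L (0.48, edgeR adjusted p 0.0917). Cacna1a (P/Q-type) had a similar fitted difference, 0.61 (SE 0.35, edgeR adjusted p 0.211), with a wider spread, from 0.534 to 5.86 CPM over the IP libraries. The 0.534 CPM belonged to animal B, without which it passed (0.72, edgeR adjusted p 0.0462).

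All 3 T-type pores, which open near rest and drive rebound firing, had negative fitted differences, and 1 passed. Cacna1h (ENSMUSG00000024112.16, chromosome 17, 25374285 to 25433783, minus strand) had 10.3, 13.7 and 15.5 CPM in pre-IP against 1.14, 8.18 and 10.3 CPM in IP. IP was lower in all 7 animals, from -0.37 in EYFP animal I to -3.14 in tau animal B. The log2 fold change was -0.92 (SE 0.28, edgeR adjusted p 0.0201), and without tau animal C or L it missed the threshold (-0.87, edgeR adjusted p 0.0666, and -0.90, edgeR adjusted p 0.0568). Cacna1g gave -0.42 (SE 0.19, edgeR adjusted p 0.106) and, with the animal as a block, -0.46 (edgeR adjusted p 0.0254). Cacna1g also passed as lower with the library-number range as a covariate, in voom and without EYFP animal H. In tau animals alone it passed both without and with the block, so that 6 of 19 other settings called it. Its values per animal were 0.02, -0.13 and -0.22 in the EYFP animals and -1.06, -0.38, -1.04 and -0.75 in tau animals B, C, L and M. Cacna1i had 10.2, 10.5 and 13.5 CPM in pre-IP and 2.42, 11.9 and 16.0 CPM in IP, gave -0.22 (SE 0.26) and was above 0 in 4 of 7 animals.

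Of the 4 L-type pores, which couple calcium entry to pacemaking and gene regulation, none passed in edgeR at an adjusted p of 0.05 and 0 had an unadjusted p under 0.05. DESeq2 called none of the 3 to which it gave an adjusted p (all but Cacna1s), and voom called Cacna1s (-2.27, adjusted p 0.0305), the skeletal muscle form, which had at most 0.99 CPM and no counts in 3 of 7 IP libraries. Cacna1c had 4.58, 5.63 and 8.32 CPM in pre-IP and 3.03, 6.39 and 8.65 CPM in IP, and Cacna1d had 2.97, 3.32 and 6.17 against 2.43, 4.16 and 6.84. Both ranges overlapped almost fully, with log2 fold changes of 0.0018 (SE 0.18) and 0.25 (SE 0.22). Cacna1d shares 589 exonic bases with Chdh on the other strand, so its counts are uncertain. Exons of Cacna1h, Cacnb4, Cacng2 and Hcn3 also overlap genes on the other strand, each of which had fewer counts than the channel gene (103 to 2763 for the first 3 and 50 for that at Hcn3).

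Of the 8 accessory calcium channel subunits 3 were higher in IP. Cacna2d1, the alpha2delta subunit bound by gabapentin, had 5.75, 11.2 and 12.9 CPM in pre-IP and 11.2, 19.6 and 29.5 CPM in IP, with a log2 fold change of 0.99 (SE 0.22, adjusted p 0.00285 in edgeR). Cacna2d3 (chromosome 14, 28904943 to 29721864, minus strand), another alpha2delta subunit, had 14, 18.2 and 21.6 CPM in pre-IP and 21, 27.3 and 32.7 CPM in IP, with 0.63 (SE 0.11, edgeR adjusted p 0.00061). Both were higher in the IP of all 7 animals. Their paralogs Cacna2d2 and Cacna2d4 lay below 0, at -0.28 (SE 0.16) and -0.53 (SE 0.27), and Cacna2d4 passed only with the animal as a block (-0.46, edgeR adjusted p 0.046). Cacnb4, a beta subunit whose loss causes the lethargic phenotype in mice, had 22.5, 41.5 and 48.7 CPM in pre-IP and 37.4, 51.1 and 63.9 CPM in IP, a log2 fold change of 0.54 (SE 0.17, adjusted p 0.0209 in edgeR) that was lost without tau animal L (0.49, edgeR adjusted p 0.0695). The other beta subunits, Cacnb1, Cacnb2 and Cacnb3, gave -0.22, -0.37 and -0.13. Of these Cacnb2 passed as lower with the animal as a block (-0.34, edgeR adjusted p 0.0367), with the library-number range as a covariate (-0.34, edgeR adjusted p 0.0194), without tau animal L (-0.44, edgeR adjusted p 0.0466), in DESeq2 (-0.36, adjusted p 0.0483) and in voom (-0.41, adjusted p 0.0444). Cacnb1 passed as lower in voom (-0.33, adjusted p 0.0276) and without tau animal B (-0.39, edgeR adjusted p 0.00839).

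Most genes named Cacng encode regulators of AMPA-type glutamate receptors and not calcium channel subunits proper. Cacng4 (ENSMUSG00000020723.3, chromosome 11, 107732357 to 107794557, minus strand) had 10.1, 11.6 and 13.6 CPM in pre-IP and 13.8, 23.6 and 27.6 CPM in IP. The fractions did not overlap, the IP value was higher in all 7 animals, and the log2 fold change was 0.95 (SE 0.14, edgeR adjusted p 0.00019). Cacng8 was also higher in the IP of every animal, at 0.06 to 1.12, but stayed below 4 CPM and did not pass (0.52, SE 0.20, edgeR adjusted p 0.0539). It passed in DESeq2 (0.52, adjusted p 0.0272), among genes with a mean of at least 50 counts (0.53, edgeR adjusted p 0.0466) and with sex as a covariate (0.52, edgeR adjusted p 0.0494). Cacng2, the gene of the stargazer mouse, differed little (0.06, SE 0.20), and Cacng7 gave -0.29 (SE 0.20). Cacng3 and Cacng5 varied widely between animals and are described with the tau comparison.

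The leak channel gene Nalcn (ENSMUSG00000000197.8, chromosome 14, 123276634 to 123627144, minus strand) had 16.1, 21.5 and 24 CPM in pre-IP and 20.9, 29.9 and 36.6 CPM in IP. It was higher in the IP of all 7 animals, at 0.20 in tau animal M and up to 0.91 in tau animal L and EYFP animal I, with a log2 fold change of 0.57 (SE 0.13, adjusted p 0.00323 in edgeR). In all, 9 channel genes were higher in the IP of all 7 animals, a pattern shown by 10.8% of all genes tested, and 2 were lower in all 7, shown by 16.5%. The pacemaker genes Hcn2, Hcn3 and Hcn4 did not pass in edgeR, where 0 of them had an unadjusted p under 0.05, nor in DESeq2 or voom. Hcn3 passed as lower without tau animal B (-0.49, edgeR adjusted p 0.0156) and in EYFP animals alone with the animal as a block (-0.67, edgeR adjusted p 0.00769). Over all libraries Hcn3 had 19.7, 28.1 and 32.5 CPM in pre-IP and 14.7, 18.3 and 34.4 CPM in IP, and Hcn4, the main form of the cardiac pacemaker, had 5.67, 7.69 and 10.7 against 3.81, 8.13 and 14 CPM. Both ranges overlapped, with log2 fold changes of -0.24 (SE 0.20) and 0.12 (SE 0.20). Hcn2 had a larger fitted difference with a larger error, 1.05 (SE 0.57, edgeR adjusted p 0.177). Its ratio per animal was 3.25 in tau animal M and 2.46 in EYFP animal I but between -0.71 and 0.63 in the other five.

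The animal letter pairs the fractions, and with the animal as a block all 13 genes passed again and 4 more did, among them Cacna1g, Cacna2d4 and Cacnb2, which were lower in IP, 17 in all. EYFP animals alone gave 3 calls, of which 2 (Scn1a and Scn3a) were among the 13, and tau animals alone gave 6, of which 4 were. With the animal as a block the EYFP animals alone gave 17 calls, all 13 among them, and the tau animals 10, with 7 of the 13. Over all genes the block called 6119 of 18792. EYFP animals alone called 1218 of 19105 genes and tau animals alone 3916 of 18949, and with the block 3227 and 4387. The same animals had given the 13, so these fits are no independent support. The direction of Scn3a and its call held in all 19 other settings tried. Other cell types moved with this comparison as well: 2 of 6 oligodendrocyte, 3 of 5 microglial and 1 of 6 astrocyte markers were lower in IP and 1 of 6 astrocyte markers (Slc1a2, 0.98) was higher. So was 1 of 6 markers of serotonergic and cholinergic neurons (Slc5a7, 0.55), while 1 of 6 markers of glutamate, GABA and glycine neurons (Slc17a7, -0.84), 1 of 2 of oligodendrocyte precursors and 1 of 6 of vascular cells were lower. Their part in the channel results was not tested.

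Promoter sequences are shown for 3 genes as examples. Scn2a and Nalcn were higher in IP. Cacng5 had an unadjusted edgeR p under 0.05 between the treatments in IP but did not pass the adjusted threshold. Of the 45 genes 33 matched an entry of RefSeq (GRCm38.p6), with 44 promoters, and the 250 bases before the start are printed in the direction of the gene. Capitals mark GGGCGG on either strand (printed as GGGCGG or CCGCCC, the GC box) and CANNTG (the E-box, which reads alike on both strands). Positions are chr2:65620519-65620768 on the plus strand for Scn2a, chr14:123627145-123627394 on the minus strand for Nalcn and chr11:107915056-107915305 on the minus strand for Cacng5.
Scn2a: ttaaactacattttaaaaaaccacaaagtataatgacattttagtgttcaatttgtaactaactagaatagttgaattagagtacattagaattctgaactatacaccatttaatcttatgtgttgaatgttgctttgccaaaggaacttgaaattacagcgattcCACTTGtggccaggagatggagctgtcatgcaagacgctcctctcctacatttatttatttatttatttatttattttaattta
Nalcn: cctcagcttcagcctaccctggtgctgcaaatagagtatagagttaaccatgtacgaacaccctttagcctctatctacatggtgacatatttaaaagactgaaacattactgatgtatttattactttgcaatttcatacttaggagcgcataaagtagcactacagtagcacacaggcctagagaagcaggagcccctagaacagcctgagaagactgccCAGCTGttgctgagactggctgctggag
Cacng5: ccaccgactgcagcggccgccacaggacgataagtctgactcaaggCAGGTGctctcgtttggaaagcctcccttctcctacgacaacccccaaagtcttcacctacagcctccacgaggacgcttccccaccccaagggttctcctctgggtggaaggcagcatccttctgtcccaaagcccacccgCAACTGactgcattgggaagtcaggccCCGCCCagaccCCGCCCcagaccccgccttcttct
The printed Scn2a window had 29.6% G and C and 2 CpG, and that of Nalcn 45.2% and 2 CpG, against a median of 52.4% and 6 CpG over 32851 mouse promoters of this length. The printed Cacng5 window had 62.0% G and C, 12 CpG and 2 GC boxes. Scn2a and Cacng5 each have another listed promoter, not printed: that of Scn2a had 53.2% G and C, 9 CpG and no E-box, and that of Cacng5 56.8%, 2 CpG, no GC box and 1 E-box. A GC box occurred in 32.7% of all promoters and an E-box, present at least once in each of the 3 printed windows, in 66.2%.

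Exon length moved with the fraction. Genes longer than 10000 exonic bases passed as higher in IP in 29.4% of cases over all genes and lower in 16.4%, while genes of up to 2000 bases did so in 19.98% and 1.39%. Of the channel genes, 6 of the 14 over 10000 bases were higher and 0 lower. The 11 channel genes higher in IP had a median exon length of 11146 bases and the 27 that did not pass 7338. Across the 40 channel genes Spearman's rho of exon length and log2 fold change was 0.111, and across 18661 genes -0.145, each a description over genes of the same libraries. The part of length in the calls was not tested.

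Partner proteins of these channels, a list of 26 symbols of which 24 were in the table, showed 4 genes higher and 1 lower in IP among 24 tested, with a median log2 fold change of -0.01. Over all genes tested 16.3% were higher and 14.7% lower, so that these counts do not stand out from the background. Unc80, which holds the NALCN channel complex together, was higher (1.01, SE 0.16, edgeR adjusted p 0.0003). Also higher were Rims1, an active zone protein (0.62, SE 0.10), and the sodium channel binding factors Fgf12 (0.43, SE 0.14) and Fgf13 (1.32, SE 0.44, edgeR adjusted p 0.0312), while their relative Fgf11 was lower (-0.74, SE 0.17). The mean log2 ratio of Fgf13 per animal was 1.99 in tau animals but -0.12 in EYFP animals. It was above 0 in every tau animal and in EYFP animal K (0.22). In EYFP animals H (-0.51) and I (-0.06) it was below 0, so that a higher level in IP was not seen in all controls. Unc79, the other large NALCN partner, did not pass (0.05, SE 0.16).

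The next comparison asked whether channel RNA in the IP differed between tau and EYFP animals. No channel gene passed in edgeR among 39 tested, and none of 19472 genes did (0.00%), although 4 channel genes and 2336 of the 19472 had an unadjusted p under 0.05. Those 4 were Cacng3, Scn3b and Cacng5, with higher values in tau IP, and Scn1a, with lower ones. DESeq2 called Cacng3 and Scn3b, and voom called none. Fitted log2 fold changes were above 0 for 11 channel genes and below 0 for 28, with a median of -0.22 against -0.08 over all genes, of which 43.4% were above 0.

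**Figure D3:**
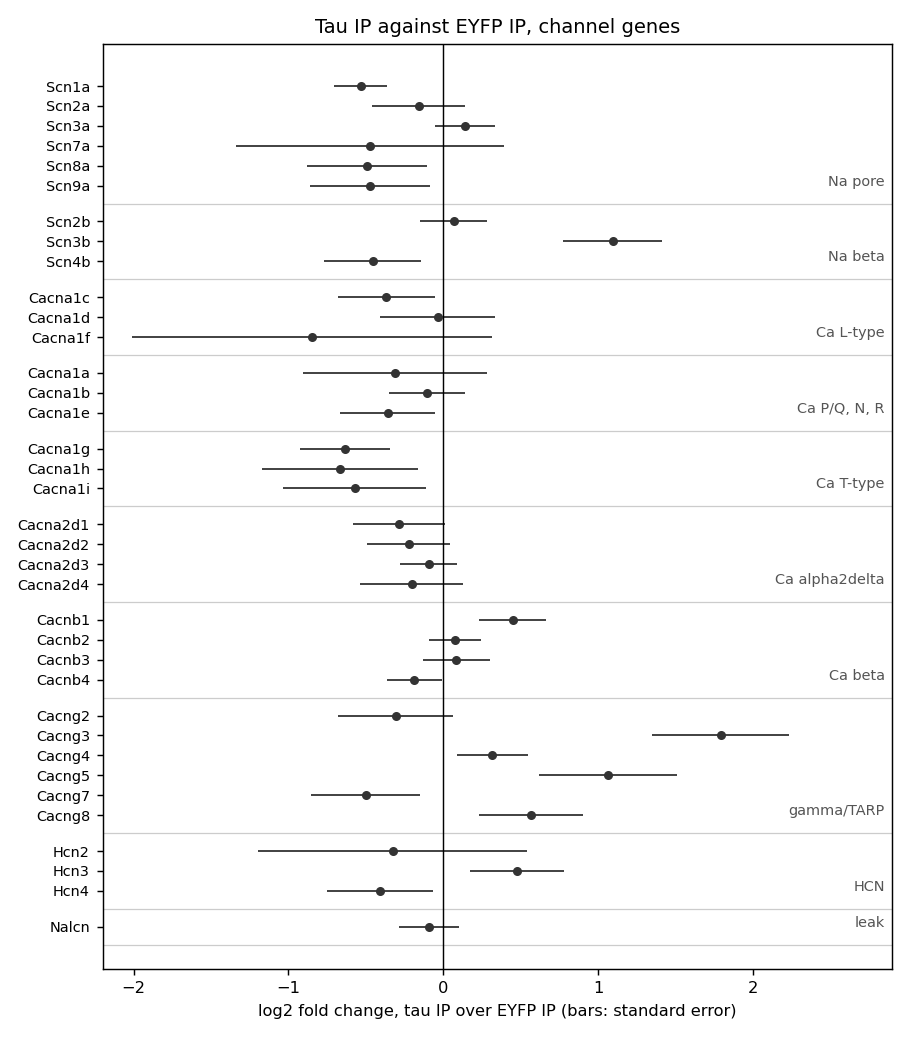
Fitted log2 fold change of tau IP over EYFP IP (4 against 3 animals) for channel genes by family, with standard errors from edgeR. Cacng3, Scn3b and Cacng5 have the largest positive values (1.79, 1.09 and 1.06), most pore subunits lie below 0, and no gene passed the adjusted threshold.

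Cacng3 (ENSMUSG00000066189.9, chromosome 7, 122670492 to 122769393, plus strand), a regulator that brings AMPA receptors to synapses, had 44.6, 39.4 and 36.9 CPM in the EYFP IP of H, I and K and 210, 134, 115 and 46.2 CPM in the tau IP of B, C, L and M. The groups did not overlap, but animal M lay next to the EYFP values. The log2 fold change was 1.79 (SE 0.44, edgeR adjusted p 0.318), and without animal M it passed at 2.08 (edgeR adjusted p 0.0151). It also passed in DESeq2 (1.83, adjusted p 0.0016), with no filter on low counts (edgeR adjusted p 0.0225) and in a single fit of all 14 libraries (edgeR adjusted p 0.0368). In pre-IP the same gene had 60.5, 57.5 and 42.2 CPM in EYFP and 46.9, 53.6, 58.0 and 50.4 CPM in tau animals, with a difference of -0.0076 (SE 0.14).

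Scn3b (chromosome 9, 40269217 to 40291618, plus strand), a sodium beta subunit that binds the pore without a covalent link, had 52.9, 49.2 and 42.7 CPM in EYFP IP and 125, 108, 99.1 and 45.0 CPM in tau IP. The first 3 tau animals lay above all EYFP animals and M among them. The log2 fold change was 1.09 (SE 0.32, edgeR adjusted p 0.318), with 1.33 (edgeR adjusted p 0.0198) without M and 1.13 (adjusted p 0.0216) in DESeq2. Cacng5 (chromosome 11, 107874605 to 107915055, minus strand), an AMPA receptor regulator, had 23.6, 19 and 24.5 CPM in EYFP IP and 68.8, 47.9, 38.8 and 14.6 CPM in tau IP. Here M was the lowest of all 7, and the log2 fold change was 1.06 (SE 0.44, edgeR adjusted p 0.394).

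The order of the tau animals in these 3 genes was close to that in the noradrenergic markers given above, B highest and M lowest in each of them. In ratio to the animal's own pre-IP, Cacng3 stood at 2.16, 1.33, 0.99 and -0.13 in B, C, L and M and at -0.44, -0.55 and -0.19 in H, I and K. Scn3b stood at 1.17, 0.79, 0.86 and -0.08 against -0.37, -0.38 and -0.20. Cacng5 stood at 0.94, 0.42, 0.01 and -1.41 against -0.68, -0.87 and -0.67, so that in the EYFP animals taken alone it was lower in IP (-0.74, edgeR adjusted p 0.0305). In tau animals alone Cacng3 passed as higher in IP (edgeR adjusted p 0.0279). Scn3b did so there only with the animal as a block (edgeR adjusted p 0.0494). The summed level of the noradrenergic list ran from 508 to 578 CPM in EYFP IP, 995 to 6645 CPM in tau IP, 365 to 441 CPM in EYFP pre-IP and 375 to 403 CPM in tau pre-IP. All 11 tested markers of that list had higher fitted values in tau IP, none of which passed, while all 6 markers of astrocytes, 6 of oligodendrocytes, 5 of microglia and 6 of glutamate, GABA and glycine neurons had lower ones. Their part in the channel results was not tested.

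**Figure D4:**
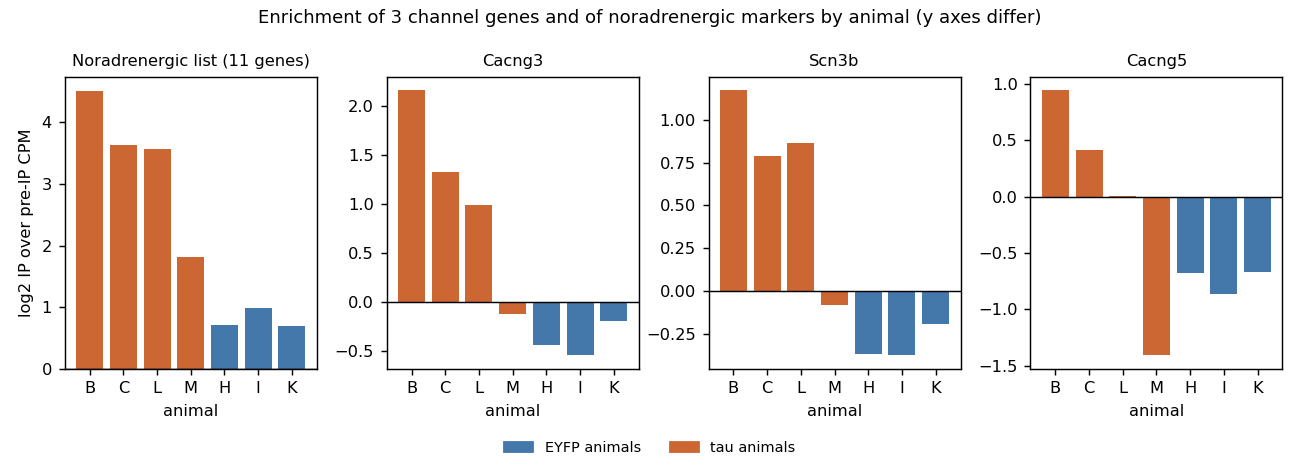
Log2 ratio of IP to pre-IP CPM in each animal for the mean of 11 noradrenergic markers and for Cacng3, Scn3b and Cacng5, tau animals in orange and EYFP animals in blue, with a y axis of its own in each panel. Tau animal B has the highest bar and M the lowest tau bar in each of the 4 panels, and all EYFP bars of the 3 channel genes lie below 0.

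Scn1a pointed the other way. It had 121, 125 and 101 CPM in the EYFP IP of H, I and K and 50.4, 83.4, 86.4 and 78.3 CPM in the tau IP of B, C, L and M, without overlap, and a log2 fold change of -0.53 (SE 0.17, adjusted p 0.319 in edgeR). Without animal B, the lowest, it was -0.41 (edgeR adjusted p 0.352). Cacna1g had 36.2, 20.4 and 16.4 CPM in EYFP IP and 13.5, 20.02, 12.1 and 12.4 CPM in tau IP, with overlap and a log2 fold change of -0.63 (SE 0.29, adjusted p 0.427 in edgeR). In all, 5 channel genes showed no overlap between the groups (Cacng3 and Cacng8 higher in tau IP, Cacng7, Scn1a and Scn8a lower), where 15.6% of all genes did, 6.36% higher and 9.22% lower.

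The partner Fgf13 had 82.9, 122 and 118 CPM in EYFP IP and 913, 537, 441 and 162 CPM in tau IP, without overlap and in the same order of animals, with a log2 fold change of 2.40 (SE 0.52, adjusted p 0.318 in edgeR). None of the 24 partners passed this comparison in edgeR, and 7 had positive and 17 negative fitted values.

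Library numbers in the labels fall into a range up to 11 (B, C, H and I) and one from 17 (K, L and M). Within the lower range the difference of mean log2 CPM, tau IP minus EYFP IP, was 2.00 for Cacng3, 1.19 for Scn3b, 1.44 for Cacng5 and -0.92 for Scn1a. In the upper range, with EYFP animal K alone as control, it was 0.98, 0.65, -0.04 and -0.30. Cacng3, Scn3b and Scn1a had the same sign in both ranges and Cacng5 did not. For Cacng3 and Scn1a the groups did not overlap, so that any split of these libraries gives the same sign. All 4 genes were picked by their p-values in the same IP libraries, so the split is no further support for a difference.

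Homogenates were compared in the same way, as the background of the IP comparison. No channel gene passed in edgeR among 41 tested, nor did any of 19197 genes (0.00%); 4 channel genes, among them Hcn2 and Scn7a with lower values in tau, and 2.84% of all genes had an unadjusted p under 0.05. DESeq2 and voom called 0 channel genes. Fitted values were above 0 for 14 and below 0 for 27 channel genes, with a median of -0.034 against -0.00048 over all genes, of which 49.9% were above 0. Hcn2 (chromosome 10, 79716634 to 79736108, plus strand), a pacemaker subunit common in the brainstem and thalamus, had 35.8, 29.2 and 113 CPM in the EYFP pre-IP of H, I and K and 12.2, 28.2, 48.5 and 18.1 CPM in the tau pre-IP of B, C, L and M. The value of 113 was that of animal K, and the log2 fold change of -1.17 (SE 0.50) became -0.23 (SE 0.39) without it.

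Among genes with positive fitted values the smallest p-values were those of Cacng8 (0.37, SE 0.26), Cacng2 (0.13, SE 0.12) and Scn2b (0.13, SE 0.13). Cacng8 had 1.67, 1.84 and 1.17 CPM in EYFP and 1.59, 1.87, 2.61 and 1.85 CPM in tau pre-IP, and the groups overlapped. Cacna2d3 was the only channel gene without overlap, at 19.3, 19.2 and 21.6 CPM in EYFP and 16.1, 18.2, 17.1 and 14 CPM in tau pre-IP, a pattern shown by 3.12% of all genes and in the lower direction by 1.78%, and its log2 fold change was -0.28 (SE 0.15). The fitted values of Hcn2, Hcn3 and Hcn4 were -1.17 (SE 0.50), -0.23 (SE 0.18) and -0.37 (SE 0.20).

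**Figure D5:**
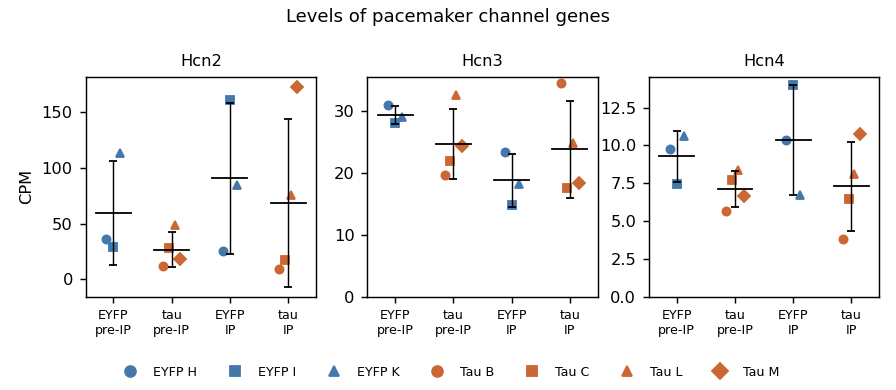
CPM of Hcn2, Hcn3 and Hcn4 in every library of the 4 groups, with group mean and SD (3 EYFP and 4 tau animals). Hcn2 runs from 9.63 to 172 CPM, with a wide spread inside each group, and Hcn3 from 14.7 to 34.4 CPM.

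Hcn2 varied most within groups among the channel genes with a mean of at least 10 CPM. Its pooled within-group SD of log2 CPM was 1.37, and 0.186% of the 9684 genes at that level had a larger one. At the other end Cacna2d3 and Cacnb1 had 0.19 and 0.20. Hcn2 had 161 and 172 CPM in the IP of EYFP animal I and tau animal M against 9.63 in that of tau animal B, so that its high libraries came from both treatments.

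The last comparison asked whether the IP over pre-IP difference itself differed between tau and EYFP animals. In edgeR 0 of 42 channel genes and 0 of 20495 genes passed (0.00%), with 3 channel genes and 5.97% of all genes at an unadjusted p under 0.05, and DESeq2 and voom called no channel gene. The 3 were Cacng3 (1.81, SE 0.49, edgeR adjusted p 0.534), Scn3b (1.21, SE 0.37, edgeR adjusted p 0.628) and Cacng5 (1.05, SE 0.49, edgeR adjusted p 0.82). Without tau animal M, Cacng3 (2.05, edgeR adjusted p 0.0156) and Scn3b (1.36, edgeR adjusted p 0.0277) passed. On the negative side the smallest p-values were those of Scn1a (-0.51, SE 0.24), Cacna1g (-0.62, SE 0.37) and Cacng7 (-0.55, SE 0.38). All 3 T-type pores had interaction values between -0.62 and -0.61, and Hcn2, Hcn3 and Hcn4 had 0.84, 0.72 and -0.042. In the fit of all animals with the filter on low counts, a larger IP enrichment of any channel gene in one treatment was not shown. With no filter Cacng3 passed (edgeR adjusted p 0.0167), among 67 of 34878 genes. Animal M had the lowest tau value of Cacng3 and of Scn3b, and the other 6 fits that left out 1 animal called neither gene. This comparison and that of tau IP with EYFP IP share the same IP libraries, and their values are no independent support of each other.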

How the data were processed

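RNA of 14 libraries (7 mice, IP and pre-IP) was measured by RNA-seq of polyadenylated RNA. The authors deposited 1 table of whole-number read counts per gene, a gene table and a sample sheet with RNA concentration. The RNA integrity number is a quality score that the authors deposited in that sheet. FastQC, Trim Galore, STAR, featureCounts and the build GRCm38/mm10 are named in the submitters' processing notes, without versions, and the use of strand is not given in the sources used here. Counts were divided by the library total to give CPM. Tests used edgeR 4.0.16 (quasi-likelihood, TMM, filterByExpr, R 4.3.3) with Benjamini-Hochberg adjustment over all genes tested and a threshold of 0.05. Alternatives used DESeq2 1.42.0 and limma 3.58.1 (voom). Ratios per animal used a prior count of 2. The animal letter pairs IP with pre-IP: deviations from the group means correlated within every animal (0.148 to 0.405, mean 0.247). Every channel gene could be named. Full values were planned for those with no overlap between fractions, the 3 smallest p-values in each direction of the other comparisons and a fixed list of main channels. Some of these, such as Cacng7, are given by their fitted value only. Ranges are also given for the other genes that passed for IP against pre-IP and for Hcn3 and Hcn4. The symbol rule uses no measured value, but this gene set, its members and the lists were chosen with earlier results of these data known. Some genes and sequences are counted in the totals but not reported here.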

Additional observations from a re-analysis of the deposited data

Results flagged for a closer look

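In 5 of 75 groups of 4 tau libraries, 1 library was set off from the other 3 by a gap past Dixon's 95% critical value. Chance alone gives about 1 in 20 such groups. The gap is taken as a share of the range. A small difference can therefore pass where the other 3 lie close together, as for Scn3a below. In tau IP, Cacng2 was 12.7 CPM in animal B against 47.4 to 54.3 CPM in the others, and Nalcn was 20.9 CPM in animal M against 29.3 to 30.4 CPM. In tau pre-IP, Cacna1d was 4.21 CPM in animal C against 3.24 to 3.32 CPM, Cacna1a was 3.11 CPM in animal L against 1.65 to 1.88 CPM, and Scn3a was 8.10 CPM in animal B against 8.44 to 8.50 CPM.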

How the results depend on the processing

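For IP against pre-IP the count of 13 channel genes became 17 with the animal as a replicate block, 16 with DESeq2, 19 with voom, 3 in EYFP animals only, 6 in tau animals only and 10 to 18 when 1 animal was left out. Calls over all genes moved too. They were 5828 of 18792 in the main fit, 6119 with the block, 6625 with DESeq2 and 6252 with voom. EYFP animals only gave 1218 of 19105 and tau animals only 3916 of 18949. Leaving out 1 animal gave 4291 to 5920. For the interaction the replicate block left the count at 0. For tau IP against EYFP IP the count of 0 became 2 with DESeq2, 1 with no filter on low counts, 1 in a single fit and 0 to 2 when 1 animal was left out; over all genes those settings gave 411, 113, 202 and, without animal M, 128 calls. With no filter 1 channel gene passed in pre-IP (Hcn2, -1.18) and 1 in the interaction (Cacng3), where leaving out 1 animal gave 0 to 2. Over all genes no filter gave 44 calls in pre-IP and 67 in the interaction, and leaving out animal M gave 56 in the interaction. Fits by treatment with the animal as a block were added after seeing the data.

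Signs turned for genes that did not pass. Cacna1c became -0.022 with the replicate block, -0.0017 with voom, -0.0063 with no filter, -0.13 in tau animals (-0.17 with the block) and ran from -0.10 to 0.11 when 1 animal was left out, below 0 without I (-0.10), C (-0.0093) or L (-0.059). In EYFP animals, without and with the block, Cacna1i became 0.14 and 0.12, Cacng3 -0.41 and -0.40, and Scn3b -0.32 and -0.32. In tau animals Cacng5 became 0.28 and 0.072 and Scn8a -0.033 and -0.20. The cause was not tested.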
